A study of Homo sapiens with 4 samples.

Results

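Mitochondrial ribosomal protein genes were taken as those whose array annotation gives a single symbol starting with MRPL or MRPS followed by digits, with pseudogenes left out. There were 75 such genes among 19775 on the array, 48 with a large-subunit symbol (MRPL) and 27 with a small-subunit symbol (MRPS). The rule used names only and no measured value. Probe sets annotated jointly to MRPL53 and CCDC142 and to MRPS24 and URGCP-MRPS24 name several genes and were not used. The symbols are not a perfect guide to place: MRPS18A and MRPS30 encode proteins of the large subunit in the human mitoribosome.

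Mitochondria carry their own ribosome, which translates the few messenger RNAs encoded in mitochondrial DNA. These encode core subunits of the respiratory chain and of ATP synthase. Its ribosomal RNAs are mitochondrial, but all of its proteins are encoded in the nucleus, made in the cytosol and imported. The large subunit joins amino acids in the peptidyl transferase centre and releases the chain through an exit tunnel, and the small subunit reads the messenger RNA. Respiratory chain complexes join subunits made on this ribosome with subunits imported from the cytosol.

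The cells were U937, a human line with monocytic features that came from a histiocytic lymphoma. The knock-down cells expressed the short hairpin shPIR#7 against PIR from the lentiviral vector pSICO-R, and the control cells carried pSICO-R without an insert, so both groups carried the vector and were grown in the same RPMI-1640 medium with serum and glutamine. PIR encodes pirin, a nuclear iron-binding protein. A single hairpin was used, and the design text states that pirin protein could not be detected by Western blot in the knock-down cells.

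RNA of 3 extractions was mixed into 1 pool per condition, and 2 HG-U133 Plus 2.0 arrays were run from each. Such a pair of arrays repeats the measurement of 1 pool. Errors therefore cover hybridisation alone (SD, n = 2 arrays), and no p-value can be given for the knock-down itself. Signals are intensities on a linear scale, and differences are on the log2(signal + 18) scale as knock-down minus empty vector. Below, a gene's signals are listed as knock-down arrays 1 and 2 against empty-vector arrays 1 and 2. PIR gave 83.4 and 91.5 against 1813 and 1882, a 17.7-fold lower signal in the knock-down pool. The myelomonocytic markers LYZ, ELANE, ITGB2, CD4, SPI1 and CSF1R were measured on these arrays (median difference 0.39 over the 6), while MPO and FCGR1A were below the brightness limit defined next. Of 9 markers of T, B, erythroid, epithelial and fibroblast cells on the array, 7 were below that limit, and CD79A and COL1A1 were at most 369.3 on any array. The ratio of 3' to 5' signal ran from 0.959 to 1.02 for GAPDH and from 1.17 to 1.18 for ACTB over the 4 arrays.

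The brightness limit is the 60th percentile of signal on an array, and a measured gene reached it on both arrays of either pool. All 75 members were measured, with signals from 1042 to 16141, against brightness limits of 116.4 to 125.5. On the log2 scale the median member's SD between arrays was 0.04 for knock-down RNA and 0.03 for control RNA.

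The first question was whether transcripts of the mitochondrial ribosome differed between the pools. They differed little. On each gene's brightest probe set, in the authors' scaling, no member reached a 2-fold or a 1.5-fold difference in either direction. Member differences ran from -0.48 for MRPL54 to 0.52 for MRPL2. The 2-fold rule asks for a difference of at least 1, all 4 array-by-array differences at least 0.5, and the higher pool above the brightness limit. Of all 10288 measured genes, 3.54% met it, 2.44% higher and 1.10% lower. Of the 4909 genes at least as bright as the dimmest member, 2.08% met it, 0.917% higher and 1.16% lower. At 1.5-fold with no overlap between the pools, the share was 14.2% of all measured genes (8.88% higher, 5.31% lower) and 9.09% of the bright ones (4.62% higher, 4.46% lower). On the brightest probe set 0 of the 75 members were past either limit, but 2 passed the 1.5-fold limit after median scaling. Of the 40 with an unshared probe set, 3 did so on it. The shares of all measured genes were 16.9% under median scaling and 15.8% on unshared probe sets. Dimmer, shared probe sets of MRPL43 (-0.87) and MRPL57 (-0.82 and -0.86) were also past 1.5-fold without overlap in the authors' scaling.

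A smaller limit was then used: at least 1.2-fold (0.26 on the log2 scale), all 4 array-by-array differences of the same sign, and the higher pool above the brightness limit. By this 1.2-fold rule, 5 of 75 members (6.67%) were higher and 11 (14.7%) were lower in the knock-down pool. The background was 25.9% of all measured genes higher and 17.7% lower (43.6% in all), so the lower share of members lay near the background and the higher share below it. Among genes at least as bright as the dimmest member the background was 20.6% higher and 17.8% lower (38.4% in all). After scaling the arrays to the same median the split turned to 11 members higher and 4 lower, against 37.5% and 10.9% of all measured genes.

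Small shifts were common. The arrays of the pools did not overlap for 56 of 75 members, 18 of them higher (24.0%) and 38 lower (50.7%). The same held for 72.0% of all measured genes, 40.9% higher and 31.2% lower, and for 79.0% of the bright ones, 41.9% higher and 37.1% lower. Differences of the members had an interquartile range of 0.25, against 0.48 over all measured genes and 0.41 over genes at least as bright as the dimmest member.

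The median member difference was -0.07, and the median of all measured genes was 0.05. Scaling to a common median moved the median of all genes by more than 0.1, to 0.17, and that of the members to 0.06, so the sign of the members' median depends on the scaling. The array median used there is taken over every probe set and was 62.7 to 72.2 before scaling. It thus lies below the brightness limits of 116.4 to 125.5. Relative to all measured genes the members' median was -0.11 in the authors' scaling, -0.08 after quantile normalization and -0.11 after median scaling. Of 75 members, 55 lay below the median of all measured genes, and 51 did so after quantile normalization.

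**Figure D1:**
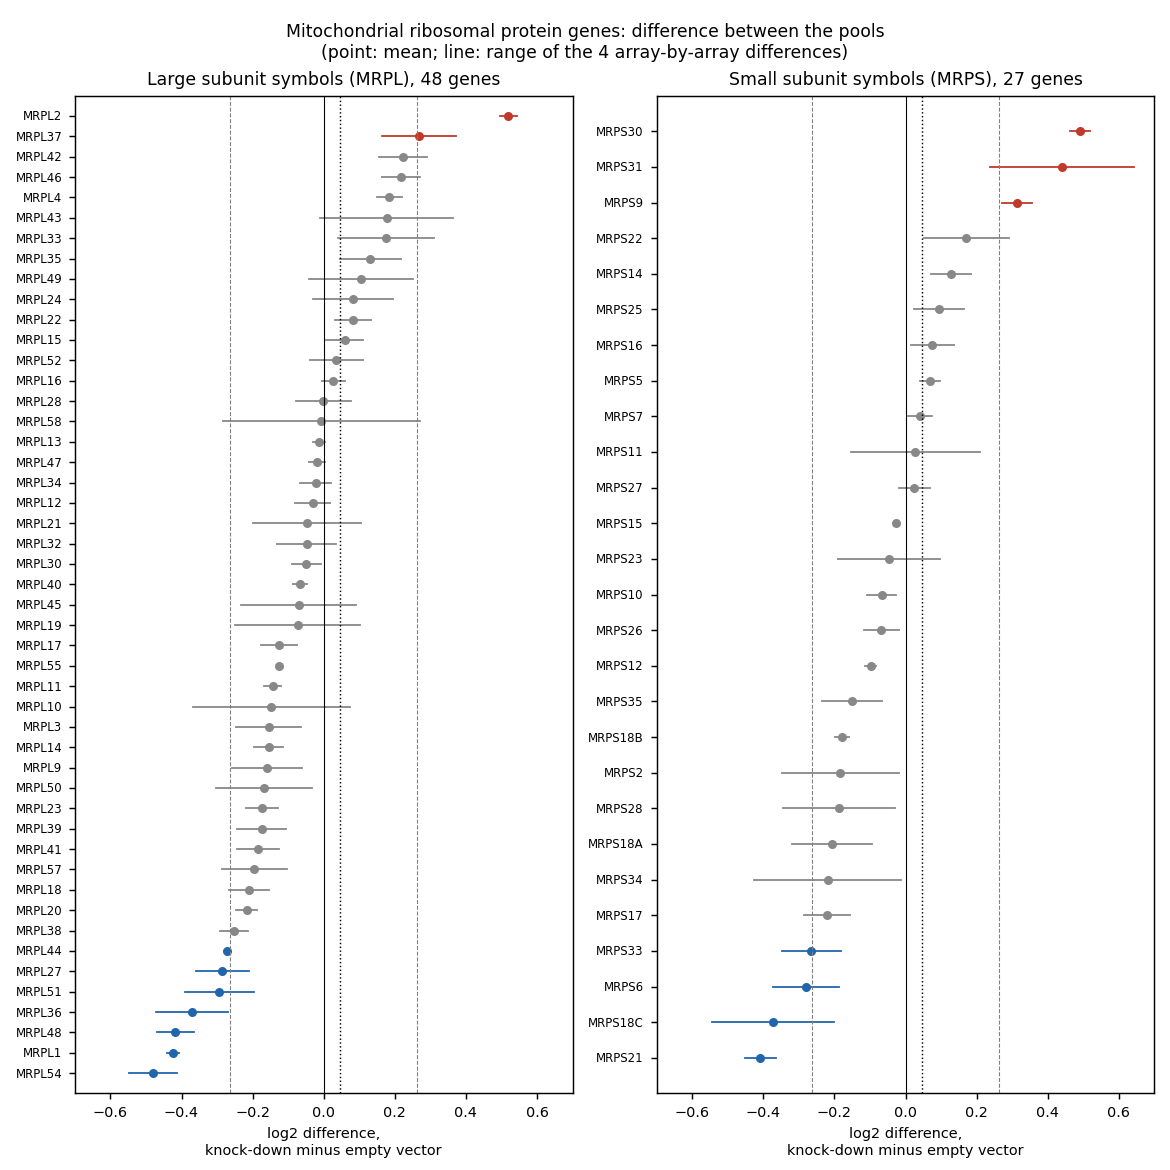
Difference between the pools for each of the 75 genes, large-subunit symbols on the left and small-subunit symbols on the right (log2 scale; point, mean difference; line, range of the 4 array-by-array differences; dotted line, median of all measured genes; dashed lines, the 1.2-fold limit; red and blue, past the 1.2-fold rule). The points span -0.48 to 0.52, with 5 red and 11 blue in the authors' scaling, which turned to 11 and 4 under median scaling.

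The second comparison was large against small subunit. The 2 groups had nearly the same median, -0.07 each, a gap of -0.0008 that changed sign between settings. Of the 48 large-subunit genes, 2 (4.17%) were higher and 7 (14.6%) lower by the 1.2-fold rule. Of the 27 small-subunit genes, 3 (11.1%) were higher and 4 (14.8%) lower. The background was 25.9% of all measured genes higher and 17.7% lower. After median scaling the large subunit had 7 higher and 3 lower, and the small subunit 4 higher and 1 lower. The background was then 37.5% and 10.9%. Moving MRPS18A (-0.21) and MRPS30 (0.49) to the large subunit left both medians as they were, since the pair lies on either side of them. No test over genes was made, since members are not replicates of a condition.

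The signals of the members past the 1.2-fold rule are given next, starting with those higher in the knock-down pool. MRPL2, whose bacterial counterpart lies beside the peptidyl transferase centre, had 2089 and 2036 against 1428 and 1439, means of 2062 ± 37.1 and 1434 ± 7.42 (SD, n = 2 arrays). The knock-down arrays were both above the empty-vector arrays by a margin many times the gap within a pool, and the difference was 0.52 (1.43-fold). Its second probe set gave 1920.4 and 1994 against 1320 and 1173, a difference of 0.65. MRPL2 was thus higher on both of its measured probe sets, and was the member with the largest difference.

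MRPS30, a large-subunit protein specific to mitochondria, had 4785 and 4716 against 3418 and 3336. Both knock-down arrays were higher, with a difference of 0.49 (1.40-fold). Its dimmer probe sets did not repeat this: the brighter of them gave 781.6 and 752.5 against 793.6 and 741.4, with overlap, and the dimmer differed by 0.19. MRPS31, a protein of the head of the small subunit, had 2424 and 2643 against 1687 and 2053. The groups did not overlap, but the empty-vector arrays lay far apart, so that single-array differences spread from 0.24 to 0.64 around 0.44 (1.36-fold). Its other measured probe set differed by 0.07, with signals of 1955 and 2009 against 1956 and 1810.3.

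MRPS9, whose bacterial counterpart reaches from the head towards the transfer RNA in the decoding site, had 2475 and 2425 against 1932 and 2007. Both knock-down arrays were higher, by 0.31 (1.24-fold), and the gene has a single probe set. MRPL37, a large-subunit protein specific to mitochondria, had 5350.2 and 4774 against 4127 and 4262. The groups did not overlap, and the difference of 0.27 was just inside the limit.

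Among the lower members, MRPL54, a mitochondria-specific protein near the stalk that recruits translation factors, had 1949 and 1871 against 2599.7 and 2742, means of 1909.8 ± 54.9 and 2671 ± 101 (SD, n = 2 arrays). Both knock-down arrays were lower, with a difference of -0.48 (1.39-fold), the largest in this direction. MRPL1, of the mobile L1 stalk through which spent transfer RNA leaves, had 2111 and 2120.2 against 2817 and 2870.3. The arrays within a pool were almost equal, and the difference was -0.42 (1.34-fold). MRPL48, of the central protuberance on top of the large subunit, had 1317 and 1404 against 1829 and 1814, a difference of -0.42 (1.34-fold). For MRPL54, MRPL1 and MRPL48 alike the knock-down arrays were clearly separated from the empty-vector arrays, and each gene had no other measured probe set.

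A trio of bacterial-type proteins of the small-subunit platform, where messenger RNA leaves, was also past the limit in the authors' scaling. MRPS21 had 3025 and 2959.6 against 3901 and 4054, a difference of -0.41 (1.33-fold). MRPS18C had 4162 and 3762 against 4787 and 5496, a difference of -0.37 (1.29-fold), and its arrays varied more within each pool. MRPS6 had 4806 and 4423 against 5728 and 5479, a difference of -0.28 (1.21-fold). It fell short of the limit after quantile normalization (-0.24) and median scaling (-0.15), as did MRPS18C after median scaling (-0.25). The platform was picked out after these values were seen. MRPS11, whose counterpart also lies there, differed by 0.03 with overlapping arrays, and MRPS18B, a relative of MRPS18C specific to mitochondria, by -0.18.

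MRPL36, a very small zinc-binding protein of the large subunit, had 5596 and 5269 against 6745 and 7308, a difference of -0.37 (1.29-fold). MRPL51, specific to mitochondria, had 5831 and 5199 against 6688 and 6816, a difference of -0.29 (1.23-fold). MRPL27, whose bacterial counterpart reaches towards the peptidyl transferase centre, had 3062 and 2872 against 3689.9 and 3548, a difference of -0.29 (1.22-fold). In all of these the knock-down arrays were lower without overlap. MRPL44, a large-subunit protein with a ribonuclease III-like fold, had 1696 and 1707 against 2062 and 2056, a difference of -0.27 (1.21-fold). Its second measured probe set, with 350.9 and 364 against 371.8 and 352.5, gave -0.02. MRPS33, of the head of the small subunit, completed the 11 lower members with 3113 and 2797 against 3531 and 3566 (-0.26). The next member, MRPL38 of the central protuberance, fell just short at -0.25. Of the 16 members past the limit, 8, MRPL2 and MRPL51 among them, were read on a probe set whose identifier marks probes shared between transcripts, as were 44 of all 75.

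**Figure D2:**
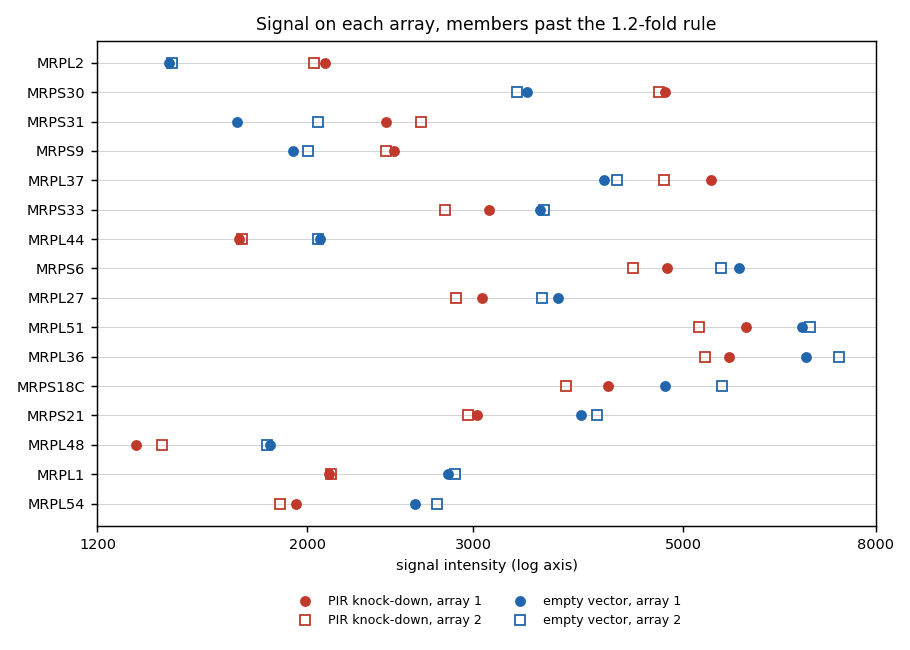
Signal intensity (log axis) on each of the 4 arrays for the 16 members past the 1.2-fold rule (red, knock-down; blue, empty vector; filled circles, array 1; open squares, array 2). Red and blue do not overlap in any row, which the rule requires, and the arrays of a pool lie farthest apart for MRPS31 in the empty-vector pool.

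Promoters of these genes were examined for letters that they share. RefSeq start windows (GRCh38.p14, 250 bases before to 50 after the gene start) were found for 67 of the 75 members, with none for MRPL10, MRPL13, MRPL15, MRPL2, MRPL21, MRPL23, MRPL35 and MRPS28. Some genes have several starts, which gave 83 windows, set against 22199 windows of protein-coding genes. Each motif was sought on both strands. The ETS-type motif CCGGAAG was in 38.6% of member windows and 12.8% of all windows, and the YY1-type motif ATGGCGGC in 22.9% and 3.91%. The NRF1-type motif was in 10 of 83 member windows and 7.39% of all windows, and the E-box CACGTG in 10.8% and 8.34%. A match is a description of letters and not a bound site.

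These stretches of 150 bases before the start come from 4 members past the 1.2-fold rule with a match there, and are shown 5' to 3' on the gene's strand with the matches in capitals. MRPS31 and MRPS9 were higher and MRPL48 and MRPL54 lower, so both directions can be set side by side.
MRPS31, chr13:40771191-40771340, strand minus: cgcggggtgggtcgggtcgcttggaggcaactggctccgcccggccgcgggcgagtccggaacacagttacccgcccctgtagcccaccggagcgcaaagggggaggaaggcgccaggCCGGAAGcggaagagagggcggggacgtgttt
MRPS9, chr2:105037919-105038068, strand plus: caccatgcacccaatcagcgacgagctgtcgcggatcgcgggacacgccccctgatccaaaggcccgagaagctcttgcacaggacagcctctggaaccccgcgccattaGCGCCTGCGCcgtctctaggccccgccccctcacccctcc
MRPL48, chr11:73787724-73787873, strand plus: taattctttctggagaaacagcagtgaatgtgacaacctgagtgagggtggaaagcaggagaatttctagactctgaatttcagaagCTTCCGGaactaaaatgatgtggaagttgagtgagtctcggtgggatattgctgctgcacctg
MRPL54, chr19:3762532-3762681, strand plus: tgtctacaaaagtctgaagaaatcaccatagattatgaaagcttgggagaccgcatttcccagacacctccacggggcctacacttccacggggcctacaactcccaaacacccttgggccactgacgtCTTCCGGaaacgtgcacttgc
The capitals are the ETS-type letters in MRPS31 and, on the opposite strand, in MRPL48 and MRPL54, starting 32, 63 and 21 bases before the start, and the NRF1-type letters in MRPS9, also on the opposite strand, starting 40 bases before it. MRPS9 also has the YY1-type letters 24 bases after its start, MRPS30 has them 16 bases after and MRPL1 19 bases after, and those stretches are not shown. Among the 29 members with the ETS-type motif the median difference was -0.07, with 1 higher and 7 lower by the 1.2-fold rule, and among the 38 without it was -0.06, with 3 higher and 4 lower. The 1 higher member with that motif was MRPS31. For the NRF1-type motif the medians were -0.13 for 9 members with it (1 higher, 2 lower) and -0.07 for 58 without (3 higher, 9 lower). For the YY1-type motif they were -0.07 both for 18 members with it (2 higher, 2 lower) and for 49 without (2 higher, 9 lower). For the E-box they were -0.16 for 9 members with it (1 higher, 3 lower) and -0.07 for 58 without (3 higher, 8 lower). Of all measured genes, 25.9% were higher and 17.7% lower by the same rule.

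By role, members past the limit came from several places in the ribosome. Medians here are relative to the median of all measured genes, and the number of measured members follows. Large-subunit proteins conserved with bacteria had -0.09 (30 genes, 1 higher and 3 lower by the 1.2-fold rule), and large-subunit proteins specific to mitochondria had -0.21 (17 genes, 1 higher and 4 lower). Conserved small-subunit proteins had -0.11 (15 genes, 1 higher and 3 lower), and mitochondria-specific ones had -0.10 (10 genes, 1 higher and 1 lower). The same 4 medians were -0.07, -0.17, -0.07 and -0.07 after quantile normalization, and -0.09, -0.21, -0.11 and -0.10 under median scaling. The counts depend on the scaling. Median scaling turned them to 3 higher and 1 lower, 4 and 2, 1 and 1, and 2 and 0. The background was 25.9% higher and 17.7% lower in the authors' scaling and 37.5% and 10.9% under median scaling.

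Within the large subunit, the 4 measured proteins of the stalk and its base were all below the median of all genes. MRPL12, the stalk protein that contacts translation factors, differed by -0.03 with overlapping arrays, MRPL11 by -0.14 and MRPL10 by -0.15, the last also with overlapping arrays. The 7 proteins of the peptide exit region had a relative median of -0.06 with none past the limit, and the 10 of the central protuberance -0.14 with MRPL48 and MRPL27 lower. The 7 measured head proteins of the small subunit had -0.01, with MRPS9 and MRPS31 higher and MRPS33 lower. After quantile normalization this median was 0.02, and the head counts were 2 higher and 0 lower. The background was 25.9% of all measured genes higher and 17.7% lower, and 24.0% and 18.9% after quantile normalization. Under median scaling the counts were 1 higher and 0 lower at the peptide exit, 2 and 1 in the central protuberance and 2 and 0 in the head. The background was then 37.5% and 10.9%. MRPS12, a core protein of the decoding centre, differed by -0.10. MRPL58, a peptidyl-tRNA hydrolase built into the large subunit that frees chains from stalled ribosomes, differed by -0.01, with array-by-array differences from -0.28 to 0.27. MRPL3, with the brightest signals among the members, had 13613 and 15058 against 15745 and 16141, a difference of -0.15 without overlap.

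Further probe sets of the same gene can target other transcript ends or splice forms. The 75 genes had 140 probe sets, and 26 genes had 2 or more that were measured. In 10 of these 26 all measured probe sets had the same sign, and in 9 the signs differed with at least 1 probe set past 1.2-fold. Of 44 measured further probe sets, 4 were higher and 11 lower by the 1.2-fold rule, and none met the 2-fold rule. On brightest probe sets, 25.9% of all measured genes were higher and 17.7% lower, and 3.54% met the 2-fold rule. The share among further probe sets of all genes was not counted.

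The widest disagreements were in large-subunit genes. For MRPL43, the brightest probe set gave 2342 and 2848 against 2359.7 and 2208, with overlap and a difference of 0.18. The dimmest gave 879 and 774 against 1519 and 1517, a difference of -0.87. The remaining probe set gave -0.12, so the reading for MRPL43 depends on the probe set. For MRPL35, the brightest gave 0.13, the next -0.25 and the dimmest -0.74, the last from signals of 276.6 and 387.4 against 650.5 and 480.6. For MRPL42, also of the large subunit, the brightest gave 0.22, the next -0.11 and the dimmest -0.62. In MRPL43, MRPL35 and MRPL42 the dimmest measured probe set was the lowest.

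MRPL4, at the peptide exit, gave 0.18 and 0.31 on its bright probe sets and -0.32 on a dim one with signals of 289.1 and 290.8 against 393.1 and 340.3. MRPS16, a conserved small-subunit protein, gave 0.08 on the brightest and -0.39 on the dimmer. MRPL30 ran from -0.35 to 0.11 over 5 probe sets, MRPS5 from -0.33 to 0.18 over 3 measured ones, and MRPS23 gave -0.05 and 0.30. MRPL57, singled out after its values were seen, gave -0.20 on its brightest probe set and -0.22, -0.82 and -0.86 on the others. MRPS22, of the small subunit, gave 0.07 to 0.27, all of the same sign, over 4 probe sets whose identifiers mark shared probes. MRPL46, of the central protuberance, and MRPL33, a small conserved protein, each had a single probe set, with differences of 0.22 and 0.18.

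**Figure D3:**
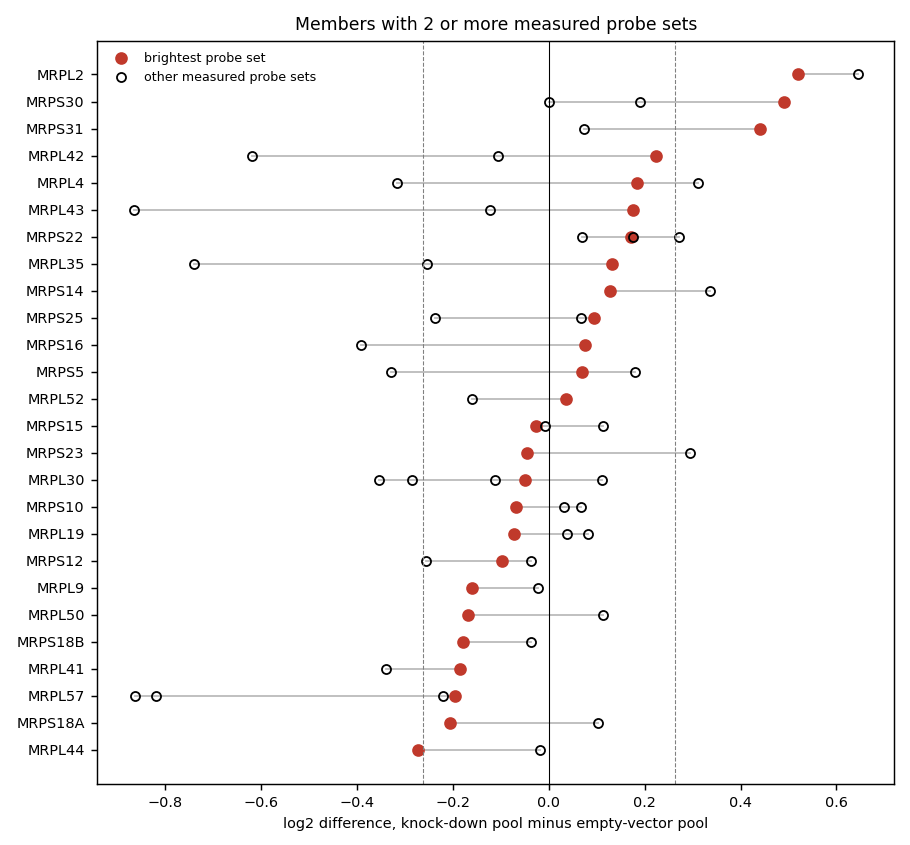
Differences (log2 scale) on every measured probe set of the 26 members with 2 or more (filled, brightest; open, others; dashed lines, the 1.2-fold limit). MRPL2 lies right of the limit on both probe sets, while MRPL43, MRPL35 and MRPL42 reach from right of zero to -0.87, -0.74 and -0.62.

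Other genes of the pathway gave further values. Mitoribosomal proteins with other names differed among themselves. CHCHD1, a small-subunit protein, had 4706 and 5148 against 3618 and 3587, a difference of 0.45 that passed the 1.2-fold rule. PTCD3, a pentatricopeptide protein of the small subunit, had 1356 and 1589.7 against 2006 and 1928, a difference of -0.42, but its dimmer probe sets gave 0.31, 0.72 and 0.08. DAP3, a GTP-binding small-subunit protein, gave 0.24, with its dimmer probe sets at -0.26 and -0.41. GADD45GIP1, of the large subunit, gave 0.05.

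Of 15 measured mitochondrial translation factors, 1 was higher and 1 lower by the 1.2-fold rule. The elongation factor TUFM differed by -0.11 and GFM1 by -0.02. The factor TSFM, which recharges TUFM, was lower, at -0.27 (1343 and 1266 against 1619 and 1543), and its further probe sets gave -0.46 and -0.51. MTRF1, of the release factor family, was higher, at 0.53 (349.6 and 354.2 against 238.1 and 237), with dimmer probe sets at -0.78 and 0.35. Of 25 measured genes of mitoribosome assembly and ribosomal RNA modification, 2 were higher and 3 lower. The background was 25.9% of all measured genes higher and 17.7% lower. Quantile normalization gave the assembly genes 1 higher and 2 lower, against 24.0% and 18.9%. Median scaling gave them 5 and 1, and the translation factors 2 and 0, against 37.5% and 10.9%. NGRN, an assembly factor, gave 0.39, with its dimmer probe sets at 0.15 and -0.09. NOA1, a GTP-binding assembly factor, gave 0.27, while the RNA methyltransferases MRM1 and MRM2 gave -0.41 and -0.26 and MTERF4 -0.38. Of 11 measured genes of mitochondrial transcription and RNA processing, MTERF1 alone was past the limit, lower at -0.56, and the relative median was -0.17, -0.13 after quantile normalization. TFAM, which packages and transcribes mitochondrial DNA, gave -0.23.

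Nuclear regulators known to act on such genes ranged more widely. PPARGC1A, a coactivator of mitochondrial biogenesis, had 814.8 and 876.4 against 276.6 and 311.4, a 2.77-fold higher signal that met the 2-fold rule. NRF1, a transcription factor of many nuclear genes for mitochondria, had 393.0 and 513.6 against 660.0 and 733.6, a difference of -0.61. Its other measured probe sets gave -0.59 and -0.51. MYC, a growth regulator, was higher by 0.28, and the remaining 6 of the 9 listed regulators were not past the limit: GABPA and YY1 at -0.22, ESRRA at 0.09, and GABPB1, PPARGC1B and PPRC1 between -0.05 and 0.02. YY1 probe sets differed in sign.

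**Figure D4:**
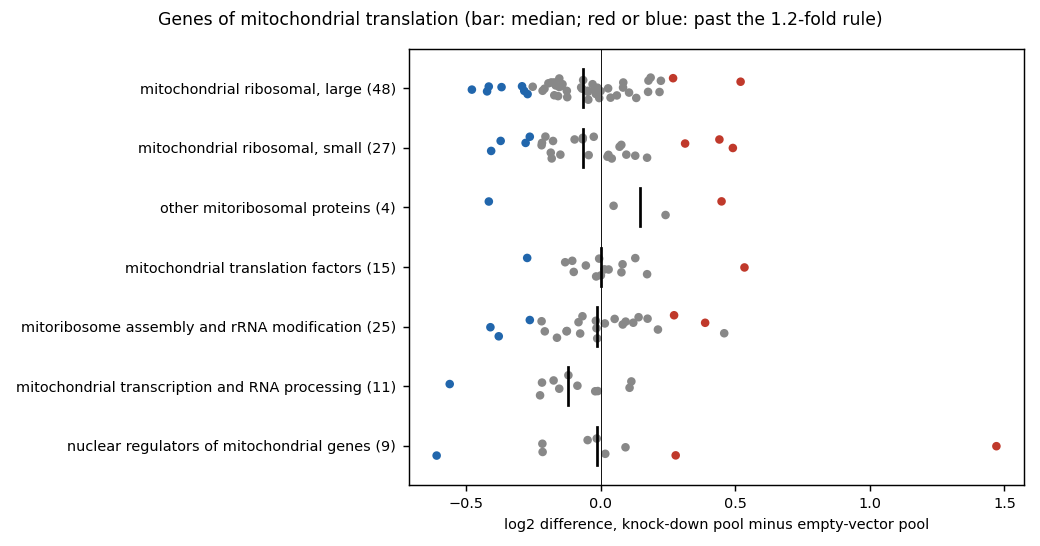
Differences (log2 scale) of measured genes in the mitochondrial ribosome and in 5 lists of related genes (points, genes; bars, medians; red and blue, past the 1.2-fold rule; vertical jitter has no meaning). The widest single difference is PPARGC1A at 1.47, and both subunits of the ribosome stay between -0.48 and 0.52.

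The mitochondrial ribosome was set beside its closest families on the same arrays. Of 52 measured cytosolic ribosomal protein genes, 46 had a positive difference, as did 5680 of all 10288 measured genes. The cytosolic median relative to all measured genes was 0.11, against -0.11 for the mitochondrial set. After quantile normalization these medians became -0.04 and -0.08, so the gap between the families narrowed. The cytosolic median itself turned from 0.15 to -0.02. Of 71 measured nuclear genes of the respiratory chain and ATP synthase, 9 were higher (12.7%) and 2 lower (2.82%) by the 1.2-fold rule. The background was 25.9% and 17.7% of all measured genes. Their relative median was 0.04 (0.05 after quantile normalization). The lower ones were COX4I2 and ATP5IF1, the inhibitor of ATP synthase. The cytosolic set had 3 higher and 3 lower (5.77% each), beside the 5 and 11 of the mitochondrial ribosome, a split that turned to 11 and 4 under median scaling. Median scaling gave 30 higher and 3 lower for the cytosolic set and 26 and 1 for the respiratory chain and ATP synthase. The background was then 37.5% and 10.9%. Quantile normalization gave the cytosolic set 0 higher and 3 lower, against 24.0% and 18.9% of all measured genes. The probe set choice mattered too. On the mean over all probe sets the relative medians were 0.05 (cytosolic), 0.005 (respiratory chain and ATP synthase) and -0.10 (mitochondrial ribosome). On unshared probe sets they were -0.02, 0.05 and -0.08, over 24, 52 and 40 genes. No test of a difference between families was made. All 10 listed proliferation genes, among them MKI67 (-1.28) and PLK1 (-1.21), were lower by the 1.2-fold rule, with a median of -0.71. Their part in the values of the mitochondrial ribosome was not tested, nor was that of the myelomonocytic markers.

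**Figure D5:**
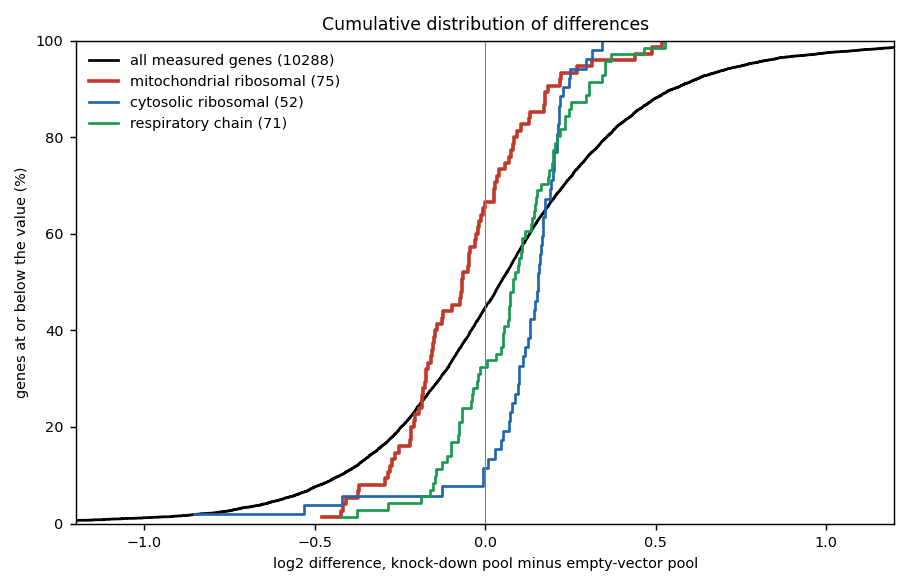
Share of genes (%) at or below each log2 difference, for all measured genes, the mitochondrial ribosome, the cytosolic ribosome and the respiratory chain with ATP synthase (number of genes in brackets). In the authors' scaling the mitochondrial ribosome crosses 50% at -0.07 and the cytosolic ribosome at 0.15, and the latter moved to -0.02 after quantile normalization.

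Many genes for mitochondrial proteins start back to back with another gene. In the same table, 20 members had an opposite-strand protein-coding gene starting within 1000 bases upstream, and 19 of these neighbours were measured. Of the 19 neighbours, 4 were higher and 4 lower by the 1.2-fold rule. Among all measured genes 25.9% were higher and 17.7% lower (43.6% in all), so neighbours passed it about as often as other genes. In 5 pairs both genes were past the limit, and 4 of these pairs had the same direction. MRPL51 at -0.29 starts opposite NCAPD2, a condensin subunit, at -0.72, with signals of 1289 and 1121 against 1973 and 2020.0. MRPL27 at -0.29 starts opposite EME1, of a DNA repair nuclease, at -0.42, MRPS18C at -0.37 opposite the helicase HELQ at -0.30, and MRPL37 at 0.27 opposite CYB5RL at 0.58. MRPL54 at -0.48 went the other way from APBA3 at 0.30. MRPL46 and MRPS11 start opposite each other, at 0.22 and 0.03, so this pair is counted from both sides, and neither was past the limit. These pairs were listed after the member values were known and carry no test.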

How the data were processed

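Gene expression was measured on 4 HG-U133 Plus 2.0 arrays, 2 per RNA pool. The values the authors deposited are linear signal intensities, 1 for each probe set on each array, made with GCOS per the submitters' processing notes. No version is given in the sources used here. After scaling by the authors, as the values show, the trimmed mean (2% off each end) was 500.07 on every array. Depth has no counterpart on arrays, whose number limits the precision.

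Of 54675 probe sets, 62 AFFX controls were left out, 41091 had 1 gene symbol in the platform annotation, 1801 several and 11721 none. All 75 members matched the RefSeq gene table by identifier and symbol. The brightest probe set (mean log2 value over the arrays) stands for its gene. Arrays of a pool were averaged after log2(signal + 18), where 18 is the mean 25th percentile of signal. This scale understates changes of dim genes. The 26 named members are the 10 largest differences in each direction whose array-by-array differences share a sign, and members whose measured probe sets differ in sign with 1 of them past 1.2-fold. MRPS33, MRPL57 and others are named to complete a count or a role. Members, lists and limits were chosen with earlier results of these data known. The calling rules and limma were checked on simulated data, with independent arrays, the spread between arrays of a pool and no brightness limit. Those data hold no variation between pools, so the check does not measure errors of the knock-down comparison. Alternatives were other pseudocounts, brightness limits (none, 75th percentile), scalings and probe set choices, a 1.5-fold limit, subunit by place, each array left out, and limma with and without a block. Software was limma 3.58.1 in R 4.3.3, and numpy 2.4.6 with pandas 2.3.3 in Python 3.11.15.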

Additional observations from a re-analysis of the deposited data

How the results depend on the processing

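None of the 174 alternative values of the 15 named members past the 1.2-fold rule changed sign. The rule itself fixes the sign for other pseudocounts, other brightness limits and each array left out, so those values are no check of direction. On unshared probe sets, most of these members were read on the same probe set as before. No member met the 2-fold rule under any alternative run. Median scaling gave 11 members higher and 4 lower, and turned the median to 0.0561 for the large subunit, 0.0579 for the small and 0.0579 for all members. The mean over all probe sets gave 3 members higher and 15 lower. At a 1.5-fold limit there were 0 higher and 0 lower on the brightest probe sets in the authors' scaling. Under median scaling 2 members were past it, and on unshared probe sets in the authors' scaling 3 of 40. The shares of all measured genes past it were 16.9% under median scaling and 15.8% on unshared probe sets. The large minus small gap, -0.0008, became 0.0008 with the larger pseudocount and 0.0404 on unshared probe sets, which only 40 members have, so it has no stable sign. With each array left out the counts were 4 to 6 higher and 10 to 14 lower. The background was then 26.7% to 29.2% of all measured genes higher and 18.6% to 20.6% lower. The large-subunit median ran from -0.114 to -0.053, the small-subunit median from -0.09 to -0.02, and the gap from -0.053 to 0.0004. The lowest large-subunit median came without empty-vector replicate 1. Limma (lmFit and eBayes with trend, Benjamini-Hochberg adjusted p under 0.05) sets the pools against the error between hybridisations, which is no test of the knock-down. It called 8 members higher and 22 lower (10.7% and 29.3%, against 24.0% and 16.8% of all measured genes). With the replicate number as a replicate block it called 9 and 22. Deviations of same-numbered arrays correlated at -0.0045 over measured genes, so they were not taken as pairs.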
